A study of Mus musculus with 7 samples.

Results

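A set of 10 genes, which macrophages and other myeloid cells use, was followed through kidney RNA-seq of diabetic mice: Cd68, Adgre1, Csf1r, C1qa, C1qb, C1qc, Lyz2, Itgam, Itgb2 and Laptm5. They were taken by symbol from the gene table, and 10 of 10 were found among 17537 listed genes in all 7 libraries. Each library came from whole renal tissue of 1 C57BL/6 mouse, aged 8 to 10 weeks at the start, and no cell sorting was described. Group C held 3 non-diabetic mice (replicates 2, 8 and 9) that received sodium citrate. Group DM-22 held 2 mice (replicates 1 and 2) made diabetic with streptozotocin (STZ), a toxin of the pancreatic beta cells, at 60 mg/kg into the peritoneum on 5 days and kept hyperglycemic for 22 weeks. Group DM+SGLT2i held 2 mice (replicates 1 and 2) given the same STZ and, after 16 weeks, 6 weeks of drinking water with dapagliflozin at 25 mg/kg, which blocks the glucose transporter SGLT2 of the proximal tubule. None of these libraries came from a mouse given the drug without STZ, and STZ acts throughout the body, so its direct effects and those of high glucose cannot be told apart here.

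The kidney holds a network of resident macrophages between its tubules, and blood monocytes can enter and become macrophages when the tissue is injured. Macrophages depend on signals through the receptor Csf1r, take up and digest debris in lysosomes that carry Cd68, Laptm5 and the enzyme lysozyme (Lyz2), and are a main source of complement C1q. C1q is built from the chains C1qa, C1qb and C1qc and starts the classical complement pathway. Adgre1 encodes the F4/80 antigen, and Itgam and Itgb2 encode the alpha and beta chains of the integrin Mac-1, with which myeloid cells adhere and engulf opsonised particles. Whole-tissue RNA cannot tell more cells of a type from more RNA per cell.

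The 3 C1q genes lie side by side on chromosome 4 of the GRCm38 build, on the minus strand, in the order C1qb (136880129 to 136886187), C1qc (136889804 to 136893065) and C1qa (136895917 to 136898803). Gaps of 3616 and 2851 bases separate them, and the whole cluster spans 18675 bases. Laptm5 is on the same chromosome (130913125 to 130936141). The others are dispersed, with Cd68 on chromosome 11 (69664213 to 69666153), Adgre1 on chromosome 17 (57358691 to 57483527), Lyz2 on chromosome 10 (117277331 to 117282321), Itgb2 on chromosome 10 (77530252 to 77565708) and Itgam on chromosome 7 (128062640 to 128118491). These genes varied together across the libraries, so their upstream sequence was searched for GAGGAA, the core of sites bound by the myeloid factor PU.1, and for GGAA, the core shared by the ETS family to which PU.1 belongs and which lies within GAGGAA. RefSeq promoter windows on GRCm38.p6, the 250 bases before the start site, were searched on both strands. This was done for 6 of the 10 members (Cd68, C1qb, C1qc, Lyz2, Itgam and Laptm5). The other members, Csf1r among them, were not searched. Cd68, C1qb and Itgam are shown because each holds GAGGAA and its window lies wholly outside the gene as annotated. Each is written 5′ to 3′ on the strand of the gene, with GAGGAA or its reverse complement in capitals.
C1qb (chr4:136886201-136886450, strand minus): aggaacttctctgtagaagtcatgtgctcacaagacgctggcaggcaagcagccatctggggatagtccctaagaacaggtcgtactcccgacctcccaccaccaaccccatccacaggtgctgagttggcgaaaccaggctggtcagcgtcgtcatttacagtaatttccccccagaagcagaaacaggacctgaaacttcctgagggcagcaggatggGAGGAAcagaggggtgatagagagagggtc
Cd68 (chr11:69666171-69666420, strand minus): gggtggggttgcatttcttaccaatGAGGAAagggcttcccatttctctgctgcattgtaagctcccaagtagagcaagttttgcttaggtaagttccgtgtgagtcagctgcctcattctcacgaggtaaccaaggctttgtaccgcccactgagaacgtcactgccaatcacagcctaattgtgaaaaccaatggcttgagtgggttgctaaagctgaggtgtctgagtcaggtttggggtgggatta
Itgam (chr7:128062390-128062639, strand plus): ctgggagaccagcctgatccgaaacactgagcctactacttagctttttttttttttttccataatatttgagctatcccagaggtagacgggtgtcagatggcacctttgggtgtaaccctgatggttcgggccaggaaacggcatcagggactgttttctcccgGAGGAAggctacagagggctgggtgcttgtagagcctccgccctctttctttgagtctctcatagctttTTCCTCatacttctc
In C1qb the match lay 30 to 25 bases before the start, in Cd68 225 to 220 bases before it, and in Itgam there were matches at 84 to 79 bases on the gene strand and at 15 to 10 bases on the other. C1qc (193 to 188 bases before the start) and Laptm5 (38 to 33 bases) held the letters on the opposite strand, and Lyz2 did not hold them in this window. So 5 of 6 members had GAGGAA, against 23.3% of 32851 mouse promoters of the same length. The windows of C1qc, Lyz2 and Laptm5 overlap these genes as annotated, and the Laptm5 match lies within the annotated gene. The shorter GGAA was in all 6, but also in 93.4% of promoters. A match of letters is a description and not a site of binding.

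Levels are given as CPM (reads of a gene scaled to a common library size) with the authors' normalization between libraries. The libraries held 46456125 to 56541594 reads on listed genes, 1 read was worth 0.0180 to 0.0231 CPM, and the 10 members together took 8838 to 39067 reads. One control, C replicate 2, stood apart from the other controls. Its summed CPM of 8 proximal tubule genes was 7776, against 34256 and 31698 in C replicates 8 and 9, and its sum of 9 tubular injury genes was 1595, against 415 and 335. It was also the highest of the 7 libraries for 9 of the 10 members, a rank it held for 16.4% of all 13976 genes tested. For 8 members it was more than 3 times the mean of C replicates 8 and 9, which held for 4.66% of genes. Leaving it out thus takes away the highest value of 9 members, so p-values without it are descriptions and not independent support. The label of C replicate 2 places it in C, so it remained in the main comparison. Every comparison of the members is given with and without it. Counts and medians of the gene lists further below are without it unless said otherwise.

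The C1q chains moved almost as 1 unit. C1qa was at 93.9, 13.7 and 13.7 CPM in C replicates 2, 8 and 9, at 31.3 and 27.8 CPM in DM-22 replicates 1 and 2, and at 37.3 and 42.1 CPM in DM+SGLT2i replicates 1 and 2. C1qb followed with 86.3, 15.1 and 15.8 CPM in the controls, 31.3 and 26.6 in DM-22, and 35.1 and 41.5 in DM+SGLT2i. C1qc read 68.1, 10.4 and 12.3 CPM in C, 26.8 and 20.6 in DM-22, and 29.6 and 32.9 in DM+SGLT2i. For all 3 chains the order was the same: C replicates 8 and 9 lowest, then both DM-22 mice, then both DM+SGLT2i mice, and C replicate 2 on top. The groups C, DM-22 and DM+SGLT2i overlapped only because of C replicate 2, which exceeded the mean of the other controls 6.88-fold for C1qa, 5.59-fold for C1qb and 6.00-fold for C1qc. The proportions between the chains hardly varied. C1qa over C1qb ranged from 0.865 to 1.09 and C1qc over C1qb from 0.689 to 0.855, while the level of each chain ranged 5.71-fold to 6.88-fold across the same libraries.

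**Figure D1:**
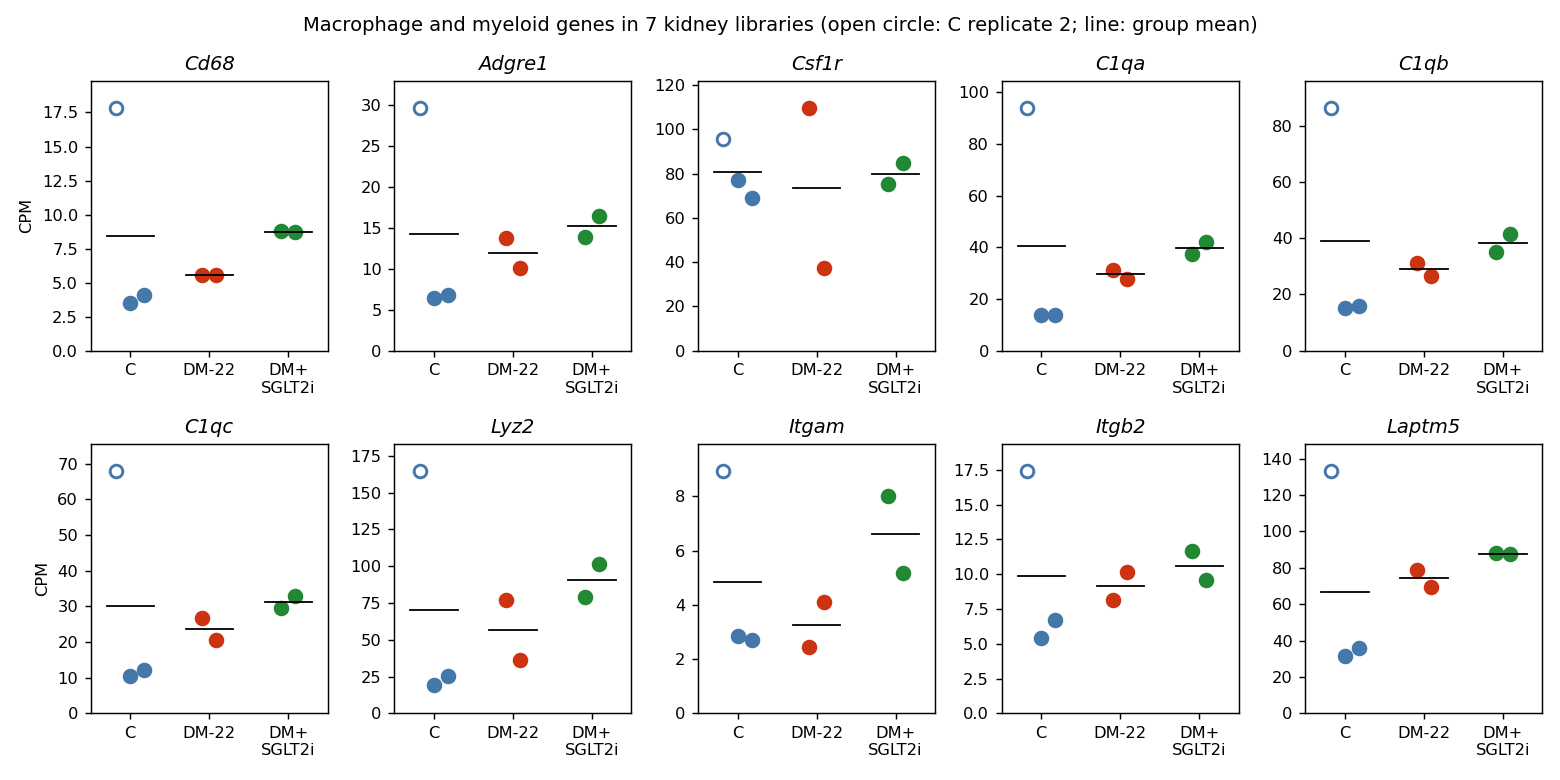
Level of each of the 10 genes in CPM (linear axis from 0, own scale per gene) by group, 1 point per mouse, with a black line at the group mean and an open circle for C replicate 2. For C1qa, C replicate 2 is at 93.9 CPM and every other library between 13.7 and 42.1 CPM, whereas for Csf1r the 2 DM-22 mice lie at the extremes, at 110 and 37.3 CPM.

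Lysozyme and the lysosomal membrane proteins had the same order of groups. Lyz2, the lysozyme of macrophages, was at 165, 19.6 and 25.3 CPM in C replicates 2, 8 and 9, at 77.4 and 36.5 CPM in DM-22, and at 79.2 and 102 CPM in DM+SGLT2i. It spanned the widest range of any member, 8.41-fold from lowest to highest, and DM-22 replicate 1 was close to DM+SGLT2i replicate 1 while DM-22 replicate 2 was nearer to the controls. Its near-identical neighbour Lyz1 stayed at a fixed proportion, with Lyz2 10.3 to 11.7 times Lyz1 in every library, so how reads were divided between the pair is uncertain. Laptm5, which encodes a lysosomal membrane protein of blood cells, was at 133, 31.7 and 35.7 CPM in the controls, 79.0 and 69.5 in DM-22, and 88.2 and 87.5 in DM+SGLT2i. Cd68, the macrosialin of phagocyte lysosomes, read 17.8, 3.47 and 4.08 CPM in C, 5.60 and 5.55 in DM-22, and 8.77 and 8.74 in DM+SGLT2i. The 2 mice of each diabetic group were thus much closer to each other for Cd68 and Laptm5 than for Lyz2. Adgre1, an adhesion-type receptor on the surface of mature mouse macrophages, was at 29.6, 6.42 and 6.86 CPM in C, 13.8 and 10.1 in DM-22, and 13.9 and 16.5 in DM+SGLT2i, so that DM-22 replicate 1 nearly met DM+SGLT2i replicate 1.

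The integrin chains were the least abundant members per kilobase of exon. Itgam had 8.94, 2.86 and 2.69 CPM in C replicates 2, 8 and 9, 2.45 and 4.09 in DM-22, and 8.00 and 5.18 in DM+SGLT2i, or 126 to 488 reads per library. DM-22 replicate 1 lay below every control for Itgam, and DM-22 replicate 2 above C replicates 8 and 9. Itgb2, whose product also pairs with the alpha chains of other leukocyte integrins, had 17.4, 5.43 and 6.69 CPM in C, 8.17 and 10.2 in DM-22, and 11.7 and 9.57 in DM+SGLT2i. Here the diabetic groups overlapped each other but not C replicates 8 and 9. The ratio Itgam over Itgb2 ranged from 0.300 in DM-22 replicate 1 to 0.686 in DM+SGLT2i replicate 1. Itgam overlaps the gene model Gm49368 on its own strand, which was not analysed here, and reads of that overlap cannot be told apart.

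Csf1r did not follow the other members. It was at 95.4, 77.4 and 68.8 CPM in C replicates 2, 8 and 9, at 110 and 37.3 CPM in DM-22, and at 75.1 and 84.9 CPM in DM+SGLT2i. Its highest and its lowest library were thus the 2 mice of 1 group, and C replicate 2 was only 1.31 times the mean of the other controls. Relative to the summed C1q chains, Csf1r was at 1.97 in C replicate 8 and 1.65 in C replicate 9 but at 0.384 in C replicate 2, a 5.13-fold range, against a 1.38-fold range for Adgre1 and a 1.56-fold range for Cd68 on the same denominator. The Pearson correlation of Csf1r with the mean of the other 9 members (each scaled) was 0.30 over the 7 libraries and 0.12 without C replicate 2. That of C1qa, C1qb, C1qc, Adgre1, Cd68, Lyz2 and Laptm5 was 0.95 to 0.99 in the 7 libraries and 0.96 to 0.99 without C replicate 2, that of Itgb2 0.91 and 0.83, and that of Itgam 0.78 and 0.64. These libraries share groups and 1 library that stands apart, and the correlations are descriptions. Csf1r overlaps Hmgxb3 on the opposite strand, and whether reads were counted by strand is not given in the sources used here. Hmgxb3 had 25.8, 50.1 and 48.0 CPM in C, 34.3 and 31.3 in DM-22 and 37.3 and 38.3 in DM+SGLT2i, without the contrast between the DM-22 mice. The sum of 4 thick ascending limb genes, led by Umod, also had its highest and lowest value in DM-22 replicates 1 and 2 (12938 and 3010 CPM, against 3488 to 6865 in the other libraries). Its part in the Csf1r values was not tested.

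**Figure D2:**
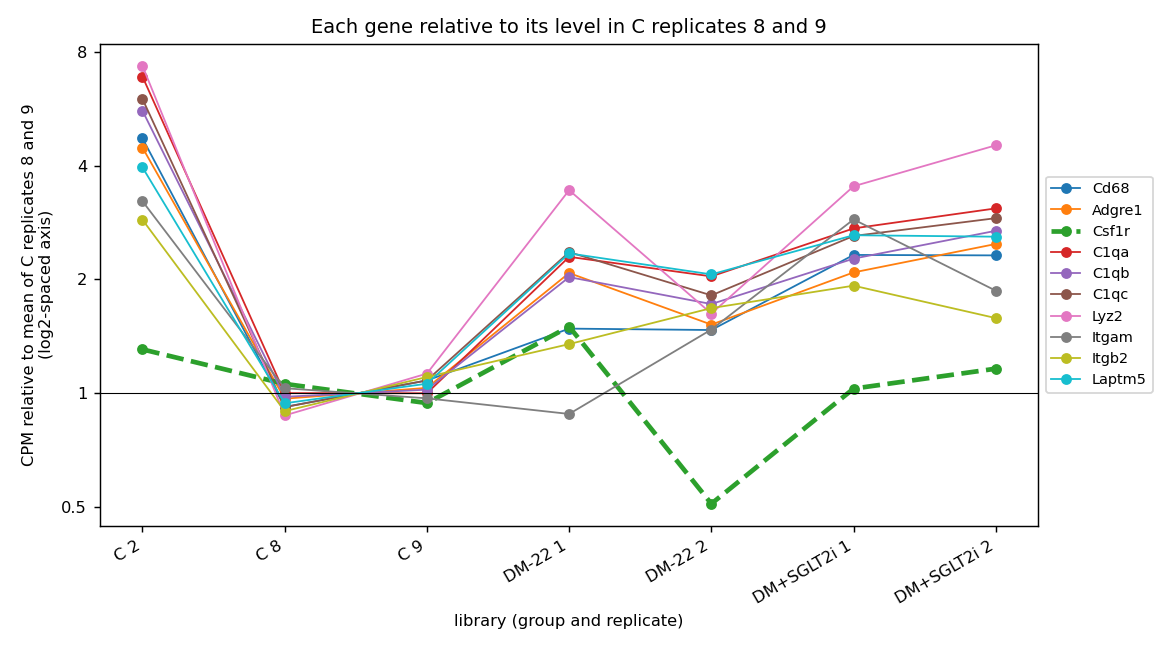
Each gene's CPM divided by its mean in C replicates 8 and 9 (log2-spaced axis) in the 7 libraries, where lines only trace a gene and the replicates of a group have no order. Csf1r (dashed) stays between 0.510 and 1.50, while Lyz2 reaches 7.34 in C replicate 2.

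Per kilobase of exon, levels of different genes are only roughly comparable, since the length took in every annotated exon of a gene, used or not. On that scale the mean over the 7 libraries was highest for Lyz2 (54.8 CPM per kb), followed by C1qa (35.7), C1qb (33.1), Laptm5 (19.8), C1qc (14.8), Csf1r (13.6), Cd68 (6.14), Adgre1 (4.29), Itgb2 (3.24) and Itgam (0.973). Lyz2 was above C1qa, C1qb above Laptm5, Csf1r above Cd68, Cd68 above Adgre1 and Itgb2 above Itgam in 7 of 7 libraries. Neighbours whose order changed between libraries were C1qa and C1qb (5 of 7), Laptm5 and C1qc (6 of 7), C1qc and Csf1r (4 of 7), and Adgre1 and Itgb2 (5 of 7).

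The first comparison asked how the members differed between untreated diabetic and control kidneys. With all 3 controls, DM-22 and C could not be distinguished. C1qa averaged 29.6 ± 2.49 CPM in DM-22 (SD, n = 2) and 40.4 ± 46.3 CPM in C (SD, n = 3), and the log2 fold change on log2(CPM + 0.5) was 0.17 (SE 0.80). Laptm5 had the highest log2 fold change, 0.47 (SE 0.59), and Itgam the lowest, -0.34 (SE 0.52). The median over the 10 members was 0.08, against 0.00 over all genes tested. By limma with Benjamini-Hochberg adjustment no member passed an adjusted p of 0.05 (adjusted p 0.858 to 0.985), none passed an unadjusted p of 0.05, and limma voom on the recovered reads gave 0 as well. Of all genes 0% passed the adjusted threshold, and 1.19% were higher and 3.28% lower at an unadjusted p under 0.05.

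Without C replicate 2, the same comparison gave log2 fold changes of 1.24 for Lyz2 (SE 0.36), 1.13 for Laptm5 (SE 0.13), 1.08 for C1qa (SE 0.13), 1.02 for C1qc (SE 0.18), 0.88 for C1qb (SE 0.15) and 0.79 for Adgre1 (SE 0.20). Itgb2 was at 0.56, Cd68 at 0.51, Itgam at 0.17 and Csf1r at -0.19, with a 95% interval of -1.34 to 0.96 for Csf1r. As plain ratios of group means, DM-22 was 2.53-fold C for Lyz2, 2.20-fold for Laptm5, 2.17-fold for C1qa and 1.01-fold for Csf1r. The member median was 0.83, against 0.00 over all genes. Both DM-22 mice lay above both remaining controls for 8 members, all but Csf1r and Itgam, as they did for 29.9% of 13841 genes. The same 8 members were higher at an unadjusted p under 0.05, where 10.5% of all genes were higher and 15% lower. None passed after adjustment by limma (lowest adjusted p 0.0777, for C1qa and Laptm5), where 0.0144% of genes did.

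The second comparison set diabetic kidneys after 6 weeks of the SGLT2 inhibitor against the controls. With all 3 controls the log2 fold changes were above 0 for all 10 members, from 0.00 for Csf1r to 1.03 for Lyz2 (SE 0.89), with a median of 0.52 against -0.01 over all genes. No member passed by limma either adjusted (adjusted p 0.9997 for each) or unadjusted, and voom called 0. Across genes 0% passed after adjustment, 0.665% were higher and 0.415% lower at an unadjusted p under 0.05. The control spread was wide. Lyz2 averaged 70.0 ± 82.3 CPM in C (SD, n = 3) and 90.5 ± 15.9 CPM in DM+SGLT2i (SD, n = 2).

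Without C replicate 2, C1qa rose by a log2 fold change of 1.50 (SE 0.13) and Laptm5 by 1.37 (SE 0.13), each with an adjusted p of 0.0490 by limma. These 2 of 10 members passed where 0.123% of all genes did. The call depended on the fit. With voom 0 members passed (0.0289% of genes), and with the DM+SGLT2i and C libraries fitted alone 9 members passed, all but Csf1r, but so did 11.9% of genes. Lyz2 had the highest log2 fold change, 1.99 (SE 0.36, adjusted p 0.1005 by limma), followed after C1qa by C1qc with 1.42 (SE 0.18, adjusted p 0.0687 by limma) and, after Laptm5, C1qb with 1.28 (SE 0.15, adjusted p 0.0644 by limma). Adgre1 was at 1.13, Cd68 at 1.12, Itgam at 1.09, Itgb2 at 0.76 and Csf1r at 0.13 (95% interval -1.02 to 1.28). As ratios of group means, DM+SGLT2i was 4.03-fold C replicates 8 and 9 for Lyz2, 2.90-fold for C1qa, 2.32-fold for Cd68 and 1.09-fold for Csf1r. The median over members was 1.20, against -0.03 over all genes. At an unadjusted p under 0.05, 9 members were higher (8.68% of all genes higher, 9.23% lower), and for the same 9 both treated mice exceeded both controls, as for 27.8% of genes. DM-22 and DM+SGLT2i were set against the same controls here, so these 2 comparisons are not independent.

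DM+SGLT2i replicate 1 stood out by another tissue. Its sum of 5 fat cell genes was 300 CPM, against 3.08 to 18.2 CPM in the other 6 libraries. With that library and C replicate 2 both left out, the treated group is 1 mouse, which is assumed to vary like the other groups. The member median of DM+SGLT2i against C was then 1.31, and 7 members were higher at an unadjusted p under 0.05, as were 7.43% of genes, with none past the adjusted threshold by limma.

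**Figure D3:**
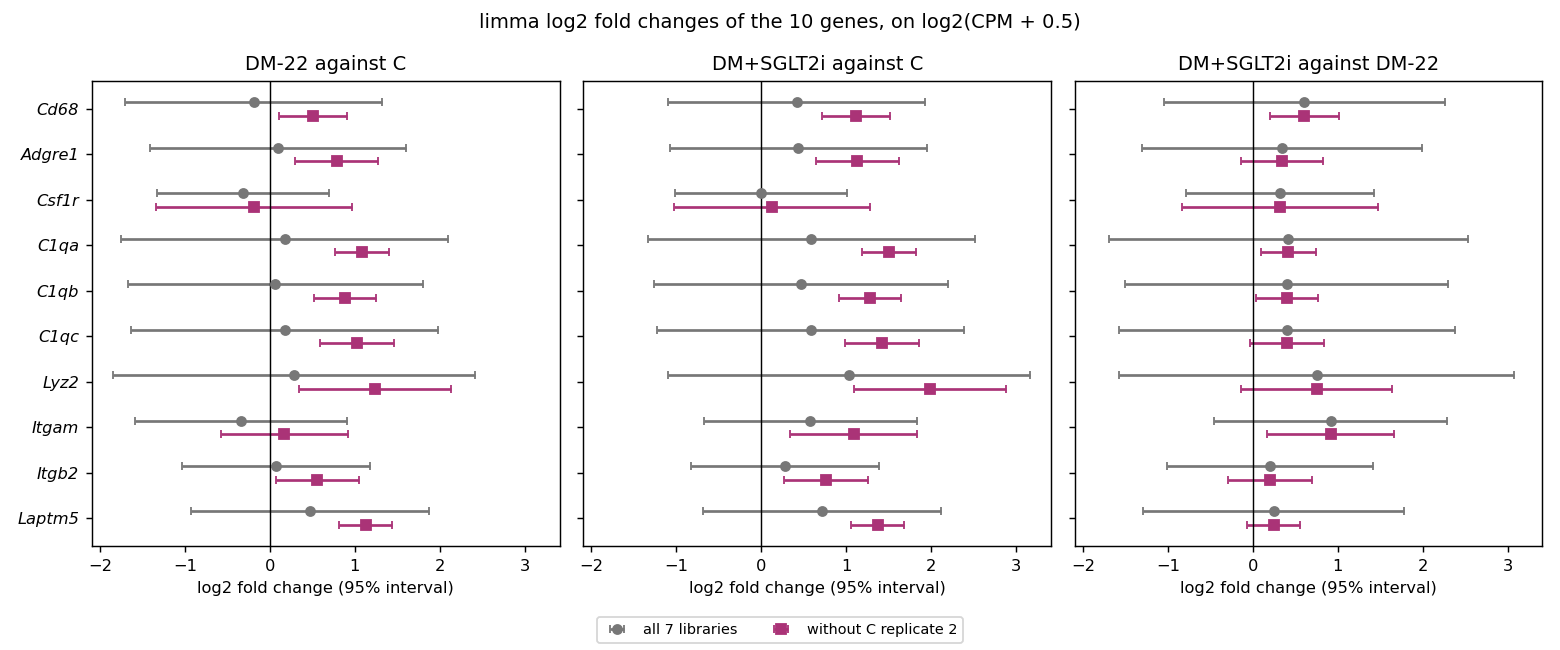
Log2 fold change of each gene on log2(CPM + 0.5), with 95% intervals, in the 3 comparisons, for all 7 libraries (grey circles) and without C replicate 2 (purple squares). With all libraries every interval includes 0, and without C replicate 2 the interval of Laptm5 against C runs from 0.82 to 1.44 in DM-22 and from 1.06 to 1.68 in DM+SGLT2i.

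The third comparison asked whether the members were lower in treated than in untreated diabetic kidneys. Every member had a log2 fold change above 0 for DM+SGLT2i against DM-22. Itgam was highest at 0.92 (SE 0.57), then Lyz2 at 0.75 (SE 0.97), Cd68 at 0.61 (SE 0.69), C1qa at 0.42, C1qb and C1qc at 0.40, Adgre1 at 0.34, Csf1r at 0.32, Laptm5 at 0.24 and Itgb2 at 0.20. The member median was 0.40, against 0.00 over all genes. Both treated mice lay above both untreated mice for 8 members, all but Csf1r and Itgb2, as for 21.3% of genes. For the complement chain C1qa the means were 39.7 ± 3.42 CPM (SD, n = 2) and 29.6 ± 2.49 CPM (SD, n = 2). No member passed by limma with or without adjustment in the fit of all 7 libraries, by voom 0 passed after adjustment, and 0% of genes passed, with 2.25% higher and 1.66% lower at an unadjusted p under 0.05. Leaving out C replicate 2 left these differences as they were, and the SEs of the members, 0.46 to 0.97 before, were 0.13 to 0.47. Then Cd68, C1qa, C1qb and Itgam were higher at an unadjusted p under 0.05, where 6.81% of genes were higher and 3.93% lower, and again no member passed after adjustment by limma (lowest adjusted p 0.464) and 0% of genes did. The 95% interval for Laptm5 then ran from -0.07 to 0.55 and that for Cd68 from 0.21 to 1.01 on the log2 scale.

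Other leukocyte and macrophage genes were read from lists that share no gene with the members, and the counts that follow are without C replicate 2, at an unadjusted p under 0.05, for DM-22 and then DM+SGLT2i against C. Beside these and the later lists, 10.5% of all genes were higher and 15% lower in DM-22, and 8.68% and 9.23% in DM+SGLT2i. For DM+SGLT2i against DM-22 the shares were 6.81% and 3.93%. Of 10 other leukocyte genes, 5 and 8 were higher, with medians of 0.47 and 0.76. Their most abundant were Lcp1, which bundles actin, with 49.5 and 43.5 CPM in C replicates 8 and 9 and 64.8 to 66.1 CPM in DM+SGLT2i, then Arhgdib and Coro1a. Of 13 other macrophage genes tested, 5 and 8 were higher, with medians of 0.55 and 0.95. Among its most abundant genes were Sirpa (51.7 to 102 CPM in the 7 libraries), which cells other than macrophages also express, and Mpeg1, a pore-forming protein of macrophages, at 22.2 and 24.4 CPM in C replicates 8 and 9, 34.7 and 36.2 in DM-22 and 48.5 and 49.1 in DM+SGLT2i. Ctss, a lysosomal protease of antigen-presenting cells, was the 1 gene of this list past adjustment by limma (DM+SGLT2i against C, log2 fold change 1.37, SE 0.13, adjusted p 0.0490), and is named after its value was seen. With all 3 controls no gene of these 2 lists passed in any comparison, even unadjusted.

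Markers of particular macrophage states gave a mixed picture. Among 8 resident macrophage genes tested, with Cd81 and Stab1 among the most abundant, 2 were higher and 1 lower in DM-22, and 4 were higher in DM+SGLT2i, with medians of 0.25 and 1.07. Between the diabetic groups, 5 of them were higher in DM+SGLT2i than in DM-22 (Cd163, Fcrls, Mrc1, Folr2 and Cx3cr1, named after their values were seen), of which Cd163, a scavenger receptor for haemoglobin, had a log2 fold change of 1.76 and Folr2, a folate receptor, of 1.68. Those 2 genes also passed the unadjusted threshold with all 7 libraries. With all 3 controls, the medians of this list against C were -0.28 in DM-22 and 0.68 in DM+SGLT2i. Then 1 gene was lower in DM-22 and 1 higher in DM+SGLT2i. Of 10 genes of lipid-associated macrophages, 4 and 7 were higher and 0 and 1 lower, with medians of 0.57 and 0.85. They are led by Spp1, Ctsd and Cd63, which tubule cells can express too, and Lgals3, a galectin named after its value was seen, was the 1 past adjustment by limma (DM+SGLT2i against C, log2 fold change 1.38, SE 0.13, adjusted p 0.0490). Of 8 monocyte genes, led by Ace, Nr4a1 and Ly6c2, 3 were higher in each comparison and Ace, which is abundant in the proximal tubule, was lower in DM+SGLT2i. Their medians were 0.20 and 0.60. Of 5 activation genes tested, led by Cxcl9, Nos2 and Il1b, none passed against C, and all 3 had means of 1.43 to 2.498 CPM over the 7 libraries. Fewer genes of the other lists were higher in DM+SGLT2i than in DM-22. They were 1 of 10 other leukocyte, 3 of 13 other macrophage, 3 of 10 lipid-associated, 1 of 8 monocyte and 1 of 5 activation genes (Cxcl9). With all 3 controls no gene of the lipid-associated, monocyte or activation lists passed.

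Genes that act with the members were also listed. Of 10 Fc receptors and their adapters, led by Fcgr2b, Lyn and Fcer1g, 5 were higher in each comparison (Fcgr1, Tyrobp, Fcer1g, Fcgr4 and Fcgr3 in both, named after their values were seen), with medians of 0.44 and 0.63. With all 3 controls none passed, and the medians were -0.03 and 0.14. Between the diabetic groups, without C replicate 2, 1 of the 10 was higher in DM+SGLT2i. Of 6 phagocyte oxidase genes, led by Cyba, Cybb and Rac2, 2 and 3 were higher, with medians of 0.32 and 0.57. For the C1q chains, 5 partners of the classical pathway were tested, led by C3, Serping1 and C4b, of which 0 and 4 were higher, with medians of -0.04 and 1.05. With all 3 controls 0 and 0 were higher, with medians of -0.35 and 0.46. Between the diabetic groups 3 were higher in DM+SGLT2i, and 2 with all 7 libraries. C3, the central complement component, was at 345, 15.9 and 16.3 CPM in C replicates 2, 8 and 9, at 25.2 and 38.2 in DM-22 and at 224 and 94.1 in DM+SGLT2i, with both treated mice above both untreated mice. For Mac-1, 7 other integrin chains, ligands and activators, led by Tln1, Icam1 and Icam2, had 1 gene higher in each comparison and medians of 0.06 and 0.36. For Csf1r, 5 genes were tested, its ligands Csf1 and Il34 and receptor chains for other myeloid growth factors. None passed in DM-22 (median 0.05), and in DM+SGLT2i (median 0.57) its ligand Csf1 was higher, with a log2 fold change of 0.72 (SE 0.18), and its other ligand Il34 lower, with -1.07 (SE 0.28). Neither passed adjustment, and Il34 was also lower at an unadjusted p under 0.05 with all 7 libraries. Csf2ra, the third most abundant of these, had 4.28 to 11.5 CPM. Of 9 myeloid transcription factors, led by Maf, Cebpa and Cebpb, 0 and 2 were higher and 2 and 2 lower, with medians of -0.14 and 0.08.

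Markers of other blood cells were read in the same libraries. The sum of 9 T and NK cell genes, led by Cd4, Lck and Cd8a, was 15.4, 6.40 and 6.15 CPM in C, 7.74 and 9.62 in DM-22 and 9.78 and 12.1 in DM+SGLT2i, the same order of groups as for the C1q chains at a lower level. Of 5 tested, 0 and 2 were higher. Of the lists above, the sums of the other leukocyte genes and of the classical pathway partners had that order too, and the rest did not. The other macrophage genes summed to 444 and 420 CPM in C replicates 8 and 9. Their sums were 425 and 528 CPM in DM-22 and 400 and 459 CPM in DM+SGLT2i. The sum of 7 B and plasma cell genes, led by Jchain, Mzb1 and Cd79b, ran from 13.6 to 127 CPM without that order, with 0 of 4 tested higher in either comparison and 1 lower in DM+SGLT2i. Neutrophil genes were at very low levels. Of 10, 5 were not analysed here (Camp, Elane, Ly6g, Mpo and Ngp), the sum of the others, led by S100a9, S100a8 and Ltf, was 1.43 to 5.08 CPM, and the 1 tested did not pass. Of 5 dendritic cell genes tested, led by Zbtb46, Clec10a and Clec9a, 0 and 1 were higher and 1 and 0 lower, and their sum was 10.9 to 21.05 CPM. Of 6 mast cell genes, led by Ms4a2, Hdc and Cpa3, 2 were tested and 0 and 1 were higher. For red cells, Alas2, which starts haem synthesis, was at 4.42 to 32.8 CPM and was higher in both comparisons.

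Kidney cell markers were read the same way. Of 9 tubular injury genes, led by Clu, Krt8 and Krt18, 2 and 9 were higher, with medians of 0.58 and 1.96, and their sum was 1595, 415 and 335 CPM in C, 555 and 818 in DM-22 and 996 and 1051 in DM+SGLT2i, the order of groups that the C1q chains had. Between the diabetic groups, 5 of the 9 were higher in DM+SGLT2i. The sum of 8 proximal tubule genes, led by Kap, Slc34a1 and Lrp2, was 18696 and 36157 CPM in DM-22 and 16808 and 21186 in DM+SGLT2i. Of these, 0 were higher, and 1 and 0 lower. Their medians were -0.48 and -0.56, with 0 of 8 log2 fold changes above 0 in either comparison. Thick ascending limb genes (Umod, Slc12a1 and Ptger3 leading), podocyte genes (Podxl and Synpo among the leading) and fat cell genes (Plin4, Cidec and Adipoq leading) had 0 calls in either comparison, and of 6 endothelial genes, led by Plvap, Kdr and Pecam1, 2 and 1 were higher. The part of tubule loss, of fat and of other leukocytes in the levels of the 10 members was not tested.

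**Figure D4:**
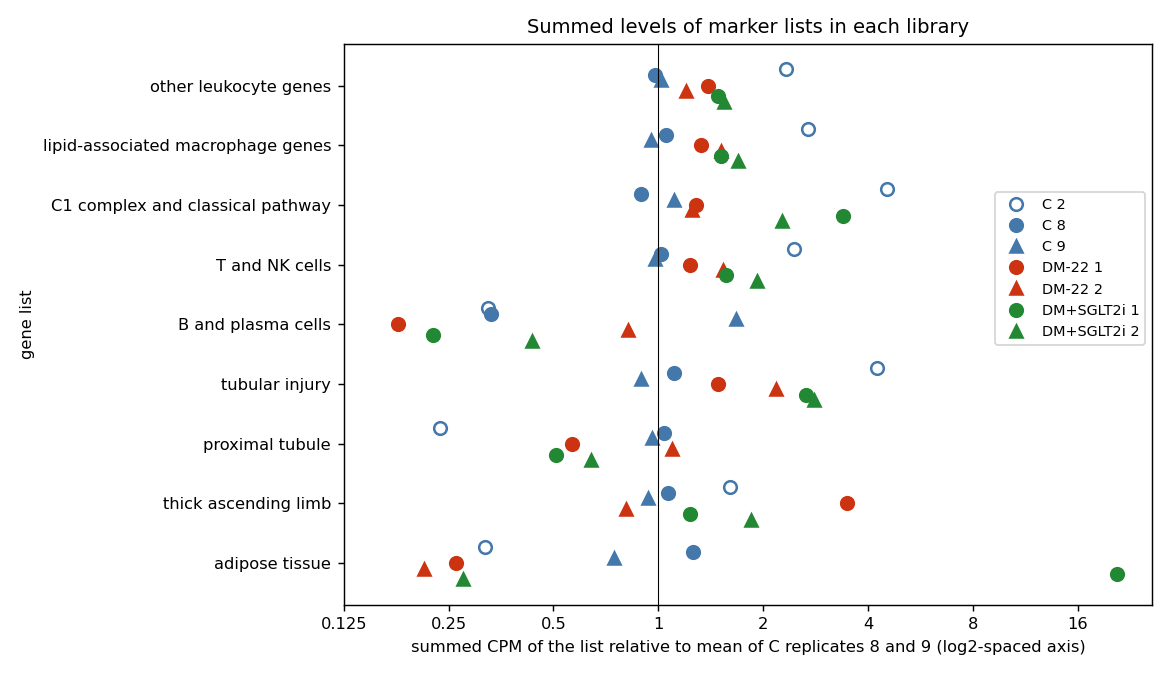
Summed CPM of 9 marker lists in each library, divided by the mean of C replicates 8 and 9 (log2-spaced axis), with 1 symbol per library. C replicate 2 (open circle) is the highest library for other leukocyte, T and NK cell and tubular injury genes and the lowest for proximal tubule genes, and DM+SGLT2i replicate 1 is far right for adipose tissue, at 300 CPM.

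Among the 10 genes whose levels over the 7 libraries were most like the mean of the scaled members were Bst2, Oas1a, C3ar1, Msr1, Efemp2, Ms4a6b, Ckap4, Zfp41 and Spp1, with Pearson correlations of 0.990 to 0.995. Bst2, an interferon-induced membrane protein that tethers budding virus, led the list, at 81.4, 7.62 and 8.93 CPM in C and 15.5 to 23.3 CPM in DM-22. C3ar1, the receptor for the complement fragment C3a, was at 14.3, 2.11 and 1.90 CPM in C and at 5.40 and 3.68 CPM in DM-22. The scavenger receptor Msr1 and Ms4a6b are also known from myeloid cells, whereas Spp1 (osteopontin, 542 to 4898 CPM) is made by injured tubules as well. The 3 least like were Asxl3, Ric8b and Usp33, with correlations of -0.99. These correlations were the extremes of 13976 genes over 7 libraries, in which C replicate 2 carried the highest member levels.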

How the data were processed

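RNA was measured in 7 kidney libraries (3 C, 2 DM-22, 2 DM+SGLT2i), made with polyA selection and a directional kit. Per the submitters' processing notes, bcl2fastq, FastQC, Trim Galore, STAR (mm10) and edgeR were used, and the counter is not given in the sources used here. The authors deposited log2 values of TMM-normalized CPM with a small constant added. The constant was read from the floor of the table (-4.66 on the log2 scale) and taken out, which gave whole reads (within 0.1) for 100% of values up to 400 reads. The 13976 genes that reached 1 CPM in 2 or more libraries, all members among them, were fitted in limma 3.58.1 (R 4.3.3; lmFit, eBayes with trend) on log2(CPM + 0.5), the 3 groups together, two-sided, with Benjamini-Hochberg adjustment and a threshold of 0.05. Fold changes on this scale understate those of low genes. The filter was applied again without C replicate 2. The fit was tested on simulated data. Nothing in the labels names a batch, and p-values measure the spread between mice of 1 study. Promoters are RefSeq on GRCm38.p6, gene positions and exon lengths GENCODE M21 on GRCm38, to which all 17537 identifiers matched.

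The members and gene lists were chosen with earlier results of these data known, and nothing here is independent support for them. The genes named are every member, the 3 most abundant of each list, and the 10 most and 3 least correlated with the members, apart from those said to be named after their values were seen. A few genes that this rule picks are not reported here. Alternatives varied the pseudocount, filter, scaling, fit, replicate block and libraries. The sources differ on the mice, the labels naming males and the methods both sexes.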

Additional observations from a re-analysis of the deposited data

How the results depend on the processing

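The member count past adjustment was 0 in all 3 comparisons under other pseudocounts, no filter, other scalings, voom, the deposited log2 values and fits of the compared groups alone, as long as all 7 libraries were used. Of the single omissions, that of C replicate 2 gave the highest member counts. Without DM-22 replicate 1, 1 member passed an unadjusted p of 0.05 by limma in DM-22 against C and in DM+SGLT2i against DM-22. Leaving out 1 library at a time, members past adjustment ranged from 0 to 2 for DM+SGLT2i against C, the 2 being without C replicate 2, and members past an unadjusted p of 0.05 from 0 to 8 for DM-22 against C, from 0 to 9 for DM+SGLT2i against C and from 0 to 4 for DM+SGLT2i against DM-22. Member medians over the same omissions ran from -0.29 to 0.83, from 0.08 to 1.20 and from 0.25 to 0.57. Alternatives chosen after seeing the data, all without C replicate 2, gave 8 members at an unadjusted p under 0.05 for DM-22 against C with voom, with those 2 groups alone and with DM+SGLT2i replicate 1 also left out, where 25.1%, 25.3% and 25.5% of all genes passed in either direction. For DM+SGLT2i against C they gave 9, 9 and 7 (18.1%, 30.4% and 14.9% of genes), and 9 past adjustment with those 2 groups alone. For DM+SGLT2i against DM-22, voom gave 4 (10.3% of genes) and leaving out DM+SGLT2i replicate 1 as well gave 3 (2.72%), and with all libraries the fit of those 2 groups alone gave 3 (5.03%). Where a group is left with 1 mouse, it is assumed to vary like the others.

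Directions in DM-22 against C turned with single libraries. Over the omissions the log2 fold change ran from -0.59 to 0.51 for Cd68, -0.28 to 0.79 for Adgre1, -1.09 to 0.46 for Csf1r, -0.28 to 1.08 for C1qa, -0.36 to 0.88 for C1qb, -0.30 to 1.02 for C1qc, -0.28 to 1.24 for Lyz2, -0.66 to 0.17 for Itgam and -0.24 to 0.56 for Itgb2. In DM+SGLT2i against C it ran from -0.11 to 0.13 for Csf1r and -0.036 to 0.76 for Itgb2, and in DM+SGLT2i against DM-22 from -0.46 (without DM-22 replicate 2) to 1.09 for Csf1r. Without C replicate 2, Cd68 was at 0.57 by voom and 0.51 with the 2 groups alone or DM+SGLT2i replicate 1 also left out, and Itgam at 0.15, 0.17 and 0.17. Scaling to the library total put C1qb at -0.022 and Itgb2 at -0.012 in DM-22 against C, and median-of-ratios scaling put Csf1r at -0.0065 in DM+SGLT2i against C. The cause was not tested.

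DM-22 and DM+SGLT2i share the replicate numbers 1 and 2, with no pairing stated. The differences between their replicates correlated at -0.04 over 13976 genes. That gives no sign of a pairing, but 1 correlation over genes cannot exclude it, since tissue differences between mice also enter it. With the replicate block, members past adjustment stayed at 0 and the medians at 0.08, 0.52 and 0.40. Each member had 126 reads or more in each library.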

Other observations

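Since Csf1r departed from the other members, the genes most like it over the 7 libraries were looked up after its values were seen. Fam107a, Gdpd3, Plau, Gcm1, Wasf3 and Serpina1f led, with Pearson correlations of 0.989 to 0.995. Plau, which encodes the urokinase of the tubules, was at 908, 688 and 510 CPM in C replicates 2, 8 and 9, at 1141 and 205 CPM in DM-22 and at 563 and 796 CPM in DM+SGLT2i, so the 2 DM-22 mice were at its extremes too. Serpina1f had 476 and 15.5 CPM in the same 2 mice and 144 to 305 CPM in the other libraries. None of these genes is in a list of macrophage genes used here.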
